A study of Mus musculus with 4 samples.

Results

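The glucocorticoid receptor gene *Nr3c1* and 9 genes of the glucocorticoid response were followed in embryonic day 17 mouse lungs, wild-type or homozygous for a missense allele of *Myh10*. The 10 genes were taken by symbol from a table of read counts for 45706 genes: *Nr3c1*, *Hsd11b1*, *Fkbp5*, *Tsc22d3*, *Klf9*, *Crispld2*, *Per1*, *Zbtb16*, *Sgk1* and *Errfi1*. The rule itself used no measured value, but this list and the other pathway lists below were drawn up with earlier results of these data known. RNA was sequenced from the left lobes of 2 wild-type and 2 *Myh10*L458R/L458R lungs on the C57BL/6 strain, without treatment. *Myh10* encodes the heavy chain of nonmuscle myosin II-B, an actin motor. L458R is a leucine-to-arginine change in the motor domain that came from a chemical mutagenesis screen and is present in every cell of the mutant embryo, not in the lung alone.

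Total counts on genes were 23156026 and 19116971 in the wild-type lungs and 27573824 and 32055306 in the mutant lungs. Levels are given as CPM (counts scaled to library size by TMM), always in the order wild-type lung 1, wild-type lung 2, mutant lung 1, mutant lung 2. Fold changes are mutant over wild-type on the log2 scale, with the standard error (SE) and adjusted p from edgeR's quasi-likelihood test over the 18763 genes whose counts averaged 5 or more. A gene was called when its adjusted p was under 0.05. *Myh10* itself stood at 505, 504, 539 and 513 CPM, and a missense allele leaves the count unable to check the genotype. *Xist*, the RNA of the inactive X chromosome, was at 3916 and 4457 CPM in wild-type lung 1 and mutant lung 2. It was at 1.84 and 4.10 CPM in the other lungs, so each genotype held 1 lung with *Xist* and 1 without. The sex-linked gene *Ddx3y* showed the reverse, at 0.437, 182, 198 and 0.0932 CPM. The tissue label was checked with *Nkx2-1*, the transcription factor of lung epithelium, at a mean of 444 CPM in wild-type and 451 CPM in mutant lungs.

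Glucocorticoids enter cells and bind the receptor NR3C1, which waits in the cytosol in a complex with the chaperone HSP90. The loaded receptor moves to the nucleus, binds a palindromic DNA element and raises or lowers the transcription of its targets. In the fetus the hormone rises before birth and drives the late maturation of the lung, including surfactant production, thinning of the airspace walls and uptake of lung liquid. The targets followed here act as feedback regulators of the receptor, as transcription factors, as secreted proteins and as regulators of ion transport or growth factor signaling.

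The receptor came first. *Nr3c1* (ENSMUSG00000024431, chromosome 18) was at 308, 299, 312 and 314 CPM. Both mutant lungs lay slightly above both wild-type lungs. The log2 fold change was 0.04 (SE 0.05, 95% interval -0.06 to 0.15, adjusted p = 0.688), which did not pass the test and bounds the difference in receptor RNA to a small size in either direction. Per length of its exons, *Nr3c1* was the most abundant of the 10 genes, at 39.5 ± 0.777 RPKM (CPM per kilobase of exon, SD, n = 2) in wild-type and 40.7 ± 0.140 RPKM in mutant lungs.

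*Hsd11b1* (ENSMUSG00000016194, chr1:193221634-193264075, minus strand, GRCm38) encodes the enzyme that regenerates active glucocorticoid inside cells from its inert form. Its level was 138 CPM in both wild-type lungs, 110 CPM in mutant lung 1 and 131 CPM in mutant lung 2. Both mutant lungs lay below both wild-type lungs, with mutant lung 1 the lower by far. The log2 fold change of -0.20 (SE 0.07, 95% interval -0.35 to -0.04) had an adjusted p of 0.185 and was not called. The value depended on the mutant lung used, at -0.08 without mutant lung 1 and -0.33 without mutant lung 2, where it was called (adjusted p = 0.00158).

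Of 12 other genes of ligand supply and corticosteroid receptors, 8 were counted well enough to be tested. None was called by edgeR or by DESeq2, and 1 had an unadjusted p under 0.05. That gene was *Nr3c2*, the mineralocorticoid receptor, which also binds glucocorticoid: 3.32 ± 0.0616 CPM in wild-type and 4.43 ± 0.369 CPM in mutant lungs (SD, n = 2; log2 fold change 0.42, SE 0.18, adjusted p = 0.257, with an antisense overlap). *Hsd11b2*, whose enzyme inactivates glucocorticoid, was low, at 2.49, 2.10, 1.94 and 2.05 CPM, and its 95% interval of -0.70 to 0.29 leaves a sizeable difference possible. *Srd5a1*, whose enzyme reduces steroid hormones, was at 9.60 ± 0.308 and 10.9 ± 0.340 CPM (log2 fold change 0.18, adjusted p = 0.429), and part of its exons overlaps another gene. *H6pd*, whose enzyme supplies the cofactor for HSD11B1, was at 241 ± 2.10 and 232 ± 10.5 CPM (log2 fold change -0.05, adjusted p = 0.61). Among steroid synthesis genes, *Star*, which brings cholesterol into the mitochondrion, was at 6.02, 6.14, 5.14 and 5.75 CPM (log2 fold change -0.16, adjusted p = 0.638). *Cyp11b1*, the adrenal enzyme that makes corticosterone, had 0 reads in every lung, and 0 reads allow up to 3, or 0.0932 to 0.158 CPM depending on the lung.

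Among the target genes, 4 fell in the mutant lungs: *Crispld2*, *Klf9*, *Tsc22d3* and *Fkbp5*. None of the 10 genes was called higher by edgeR or DESeq2, and none had a higher value at an unadjusted p under 0.05. Of all tested genes, 1.34% were called lower and 0.298% higher, or 1.64% in either direction. At an unadjusted p under 0.05, 5 of the 10 were lower, against 9.02% of all tested genes, and the fifth was *Hsd11b1*. Because these 10 genes all had at least 338 reads in every lung, a closer background is the 10979 genes averaging 250 counts or more, of which 2.1% were called lower. Without mutant lung 2 the number of these 10 genes called lower was 7, and the number over all tested genes went from 252 to 875. Without wild-type lung 1 it was 3.

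**Figure D1:**
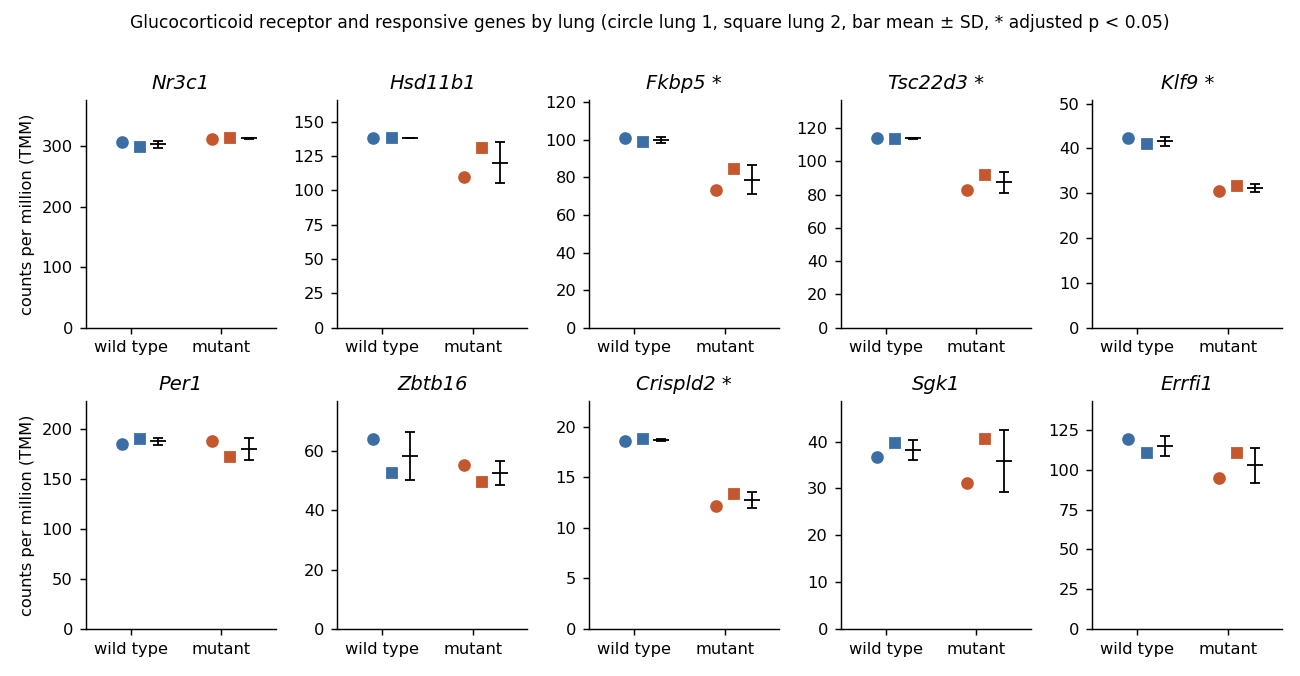
Level of each of the 10 genes in each lung, in CPM after TMM scaling, with points for the 2 wild-type and 2 *Myh10*L458R/L458R lungs and a bar for the group mean ± SD. *Fkbp5*, *Tsc22d3*, *Klf9*, *Crispld2* and *Hsd11b1* have both mutant points below both wild-type points, whereas *Nr3c1* has both above.

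*Fkbp5* (ENSMUSG00000024222, chr17:28399094-28517527, minus strand) encodes a co-chaperone that joins the HSP90 complex and lowers the receptor's affinity for hormone, and its induction is a negative feedback. Its level was 101, 98.9, 73.3 and 84.4 CPM. Mutant lung 1 was the lowest, and both mutant lungs lay below the wild-type pair. The mean fell by 21.1%, with a log2 fold change of -0.34 (SE 0.07, 95% interval -0.50 to -0.19, adjusted p = 0.0356). Without wild-type lung 1 the size was about the same, -0.33, but the adjusted p was 0.117.

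*Tsc22d3* (ENSMUSG00000031431, chrX:140539528-140600659, minus strand) encodes GILZ, a leucine zipper protein that carries part of the anti-inflammatory action of glucocorticoids. Both wild-type lungs were at 114 CPM, and the mutant lungs were at 82.9 and 91.9 CPM. The groups did not overlap, and the mean was 23.3% lower in mutant lungs (log2 fold change -0.38, SE 0.06, 95% interval -0.52 to -0.25, adjusted p = 0.0131). The gene is on the X chromosome, where the lungs with and without *Xist* were split evenly between the genotypes. Between the lungs with *Xist* the log2 difference was -0.31, and between those without it was -0.46.

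*Klf9* (ENSMUSG00000033863, chr19:23141226-23168134, plus strand) encodes a Krüppel-like transcription factor that is a direct target of the receptor. It was at 42.3, 40.9, 30.4 and 31.7 CPM. The lungs of each genotype lay close together, and the groups were well apart. The mean was 25.3% lower in mutant lungs (log2 fold change -0.42, SE 0.08, 95% interval -0.58 to -0.26, adjusted p = 0.0196). This was the steadiest of the 4 differences, at -0.42 between the lungs with *Xist* and -0.43 between those without.

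*Crispld2* (ENSMUSG00000031825, chr8:119992438-120052793, plus strand) encodes a secreted glycoprotein first described as a glucocorticoid-inducible product of fetal lung. It had the lowest level per length and the largest fall of the 10 genes. Its level was 18.6, 18.7, 12.2 and 13.3 CPM, from 426, 357, 338 and 428 reads. The wild-type lungs were almost equal, and both mutant lungs lay well below them. The mean was 31.7% lower (log2 fold change -0.55, SE 0.09, 95% interval -0.74 to -0.36, adjusted p = 0.0117), at the 3.23 percentile of the log2 fold changes of all tested genes. In bulk tissue, fewer cells of a type and less RNA per cell cannot be told apart, for this gene or any other below.

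The other 4 target genes were not called and their groups overlapped. *Per1* (ENSMUSG00000020893, chr11:69095217-69109960, plus strand), a core repressor of the circadian clock with glucocorticoid-driven transcription, was at 186, 190, 189 and 173 CPM. Only mutant lung 2 stood below the rest, and the log2 fold change was -0.06 (SE 0.05, 95% interval -0.17 to 0.06, adjusted p = 0.625). *Per1* starts 279 kb downstream of the end of *Myh10* on the same chromosome, so it lies close to the mutated gene.

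*Zbtb16* (ENSMUSG00000066687, chr9:48654297-48836222, minus strand), which encodes the zinc finger transcription factor PLZF, was at 64.0, 52.7, 55.3 and 49.5 CPM. The wild-type lungs differed more for this gene than for any other of the 10, by 0.28 on the log2 scale. The log2 fold change was -0.16 (SE 0.10, 95% interval -0.36 to 0.05, adjusted p = 0.445).

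*Sgk1* (ENSMUSG00000019970, chr10:21882184-21999903, plus strand) encodes a kinase that raises the amount of the epithelial sodium channel at the cell surface. It was at 36.8, 39.8, 31.1 and 40.5 CPM. Mutant lung 2 was the highest of the 4 lungs and mutant lung 1 the lowest, which gave the largest gap between the mutant lungs among the 10 genes, 0.38 in size on the log2 scale. The log2 fold change was -0.09 (SE 0.11, 95% interval -0.33 to 0.15, adjusted p = 0.731), and its sign depended on the lung left out, from -0.30 without mutant lung 2 to 0.09 without mutant lung 1. At -0.30 it was called (adjusted p = 0.0258).

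*Errfi1* (ENSMUSG00000028967, chr4:150853919-150868892, plus strand) encodes an inhibitor of EGF receptor signaling. It was at 119, 110, 95.2 and 111 CPM. Mutant lung 2 lay between the wild-type lungs, and mutant lung 1 lay below all. The log2 fold change was -0.16 (SE 0.07, 95% interval -0.32 to 0.000345, adjusted p = 0.303), and it was called only without mutant lung 2 (adjusted p = 0.0212).

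**Figure D2:**
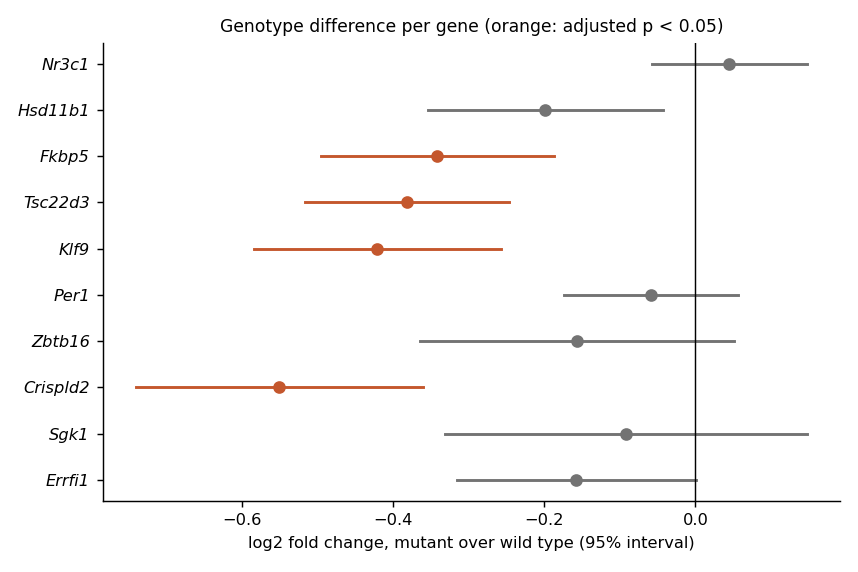
Log2 fold change of each gene, *Myh10*L458R/L458R over wild-type, with bars for the 95% interval and orange for genes called of the edgeR quasi-likelihood fit. The intervals of *Fkbp5*, *Tsc22d3*, *Klf9* and *Crispld2* lie wholly below 0, as does that of *Hsd11b1*, which was not called, and that of *Nr3c1* spans 0.

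Counted by lung, 5 of the 10 genes had both mutant lungs below both wild-type lungs, against 24.3% of all tested genes and 28.9% of those averaging 250 counts or more. *Nr3c1* alone had both mutant lungs above, against 23.9% of all tested genes. The log2 fold change was negative in 9 of the 10 genes, and the median was -0.18, beside 0.0018 over all tested genes.

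The mutant lungs were not alike, and they also differed in *Xist*, which mutant lung 2 had and mutant lung 1 did not. Mutant lung 1 lay below mutant lung 2 in 8 of the 10 genes, against 50.3% of all tested genes and 50.5% of those averaging 250 counts or more. *Per1* and *Zbtb16* were the exceptions. The median size of the log2 difference between the mutant lungs was 0.153 for these genes and 0.0792 over the genes averaging 250 counts or more. The wild-type lungs were closer for the 10 genes, at 0.0371, than over those genes, at 0.0652.

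**Figure D3:**
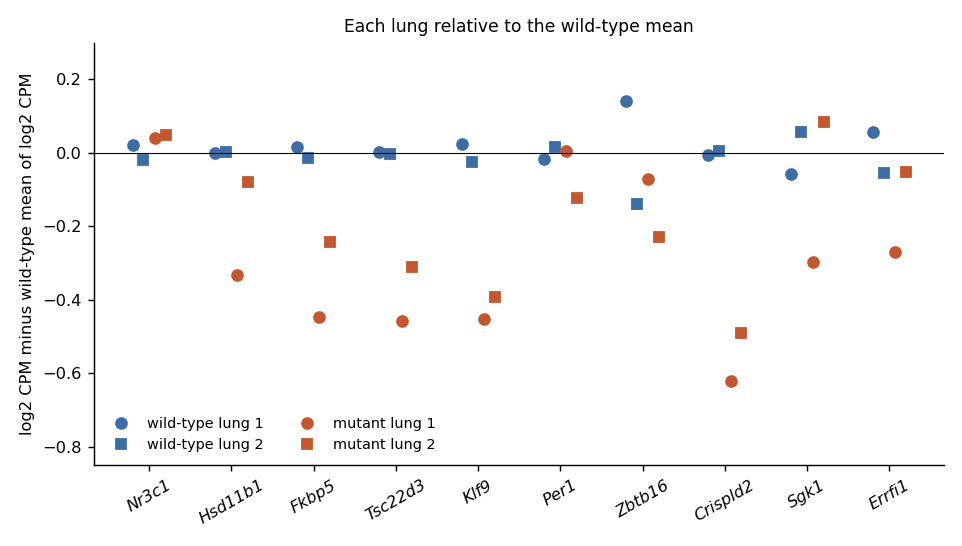
Log2 level of each gene in each lung (y axis, log2 CPM minus the wild-type mean of log2 CPM), with circles for lung 1 and squares for lung 2 of each genotype. Mutant lung 1 is the lowest of the 4 lungs for most genes, and the *Klf9* points of the mutant lungs nearly coincide.

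The 2 lungs with *Xist* and the 2 without gave differences of one sign for most genes. The log2 difference, mutant minus wild-type, was -0.26 with *Xist* and -0.43 without for *Fkbp5*, and -0.48 and -0.63 for *Crispld2*. For *Hsd11b1* it was -0.08 and -0.33. For *Sgk1* the sign differed, 0.14 with *Xist* and -0.35 without, and for *Zbtb16* it differed the other way, -0.37 and 0.07. Each of these differences rests on 1 lung against 1, with no test.

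Levels between genes were compared per length, in RPKM over the union of each gene's exons. In wild-type lungs the order after *Nr3c1* was *Per1* at 33.4 ± 0.557, *Hsd11b1* at 32.5 ± 0.0512 and *Errfi1* at 32.1 ± 1.76 RPKM, and *Errfi1* did not differ from the other two beyond its spread. *Tsc22d3* followed at 26.3 ± 0.0652 RPKM. *Zbtb16* at 11.0 ± 1.51 and *Fkbp5* at 10.6 ± 0.159 RPKM lay within the spread of *Zbtb16*, above *Klf9* at 8.65 ± 0.210, *Sgk1* at 7.80 ± 0.433 and *Crispld2* at 3.91 ± 0.0226 RPKM. In mutant lungs the order was the same except that *Errfi1* (28.7 ± 3.07 RPKM) and *Hsd11b1* (28.3 ± 3.50 RPKM) changed places within their spread, as did *Sgk1* (7.30 ± 1.36 RPKM) and *Klf9* (6.46 ± 0.188 RPKM). The genes that fell therefore included a well-expressed one, *Tsc22d3* at 20.1 ± 1.45 RPKM in mutant lungs, and the least expressed, *Crispld2* at 2.66 ± 0.170 RPKM.

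The receptor binds a palindrome of the arms AGAACA and TGTTCT with any 3 bases between them, and each arm reads as the other on the opposite strand. RefSeq promoter windows (250 bases before to 50 after a transcription start, GRCm38.p6) were searched on both strands for the palindrome, for its arm and for CACGTG, the E-box bound by the CLOCK proteins. A match is a description of the letters and not a binding site. There were 32851 windows, of which 17 belonged to 8 of the 10 genes, and *Sgk1* alone had 6 windows that did not overlap. The full palindrome stood in 3 windows of all (0.00913%), and 1 of these was a start of *Sgk1*. The arm stood in 19.0% of all windows and in 4 of the 17, which belonged to *Sgk1* and *Tsc22d3*. CACGTG stood in 7.15% of all windows and in 4 of the 17, 1 each of *Crispld2*, *Fkbp5*, *Per1* and *Sgk1*.

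The 250 bases before the start are shown for the 4 genes that fell, and for the *Sgk1* start that holds the palindrome, 5′ to 3′ on the strand of the gene. Capitals mark matches to the motifs. *Sgk1* (chr10:21993640-21993889, plus strand, in an intron of the longer *Sgk1* transcripts) has the palindrome 189 bases before the start. An arm 242 bases before the start there overlaps the CACGTG at 246. *Crispld2* (chr8:119992188-119992437, plus strand, inside the readthrough gene *Gm20388* but outside its exons) has CACGTG 235 bases before the start, and *Fkbp5* (chr17:28486150-28486399, minus strand, in an intron of longer *Fkbp5* transcripts) has it 169 bases before. *Klf9* (chr19:23140976-23141225, plus strand, in no other gene) and the *Tsc22d3* start shown (chrX:140548572-140548821, minus strand, in an intron of longer *Tsc22d3* transcripts) have no match.
Sgk1: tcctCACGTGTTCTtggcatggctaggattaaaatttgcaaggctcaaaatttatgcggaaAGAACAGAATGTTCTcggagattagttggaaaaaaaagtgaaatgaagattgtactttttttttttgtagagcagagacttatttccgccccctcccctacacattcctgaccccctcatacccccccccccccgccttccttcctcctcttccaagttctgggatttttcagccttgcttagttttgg
Crispld2: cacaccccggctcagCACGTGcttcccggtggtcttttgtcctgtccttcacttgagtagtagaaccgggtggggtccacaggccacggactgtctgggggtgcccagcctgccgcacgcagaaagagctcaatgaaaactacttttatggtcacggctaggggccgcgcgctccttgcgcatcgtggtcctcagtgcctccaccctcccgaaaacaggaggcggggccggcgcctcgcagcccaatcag
Fkbp5: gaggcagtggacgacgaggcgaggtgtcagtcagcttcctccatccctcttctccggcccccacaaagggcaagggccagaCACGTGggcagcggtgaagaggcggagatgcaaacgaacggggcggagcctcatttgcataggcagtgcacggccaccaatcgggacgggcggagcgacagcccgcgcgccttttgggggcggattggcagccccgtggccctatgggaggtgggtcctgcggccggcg
Klf9: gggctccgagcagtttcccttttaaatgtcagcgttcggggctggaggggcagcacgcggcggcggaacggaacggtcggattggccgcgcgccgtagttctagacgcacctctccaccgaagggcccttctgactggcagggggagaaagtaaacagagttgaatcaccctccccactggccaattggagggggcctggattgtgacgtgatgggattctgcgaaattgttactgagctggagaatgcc
Tsc22d3: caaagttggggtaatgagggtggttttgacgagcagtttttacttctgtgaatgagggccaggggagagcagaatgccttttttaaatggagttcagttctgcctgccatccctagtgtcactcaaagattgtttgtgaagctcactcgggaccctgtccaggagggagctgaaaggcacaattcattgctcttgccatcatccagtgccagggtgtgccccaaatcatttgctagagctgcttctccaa
Among the 17 windows the full palindrome lay only at *Sgk1*, and *Klf9* had none of the motif letters in its window. Sequence outside the windows was not searched, so a window without a match says nothing about sites elsewhere. Of the other *Tsc22d3* starts, the most upstream had an arm 185 bases before it.

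**Figure D4:**
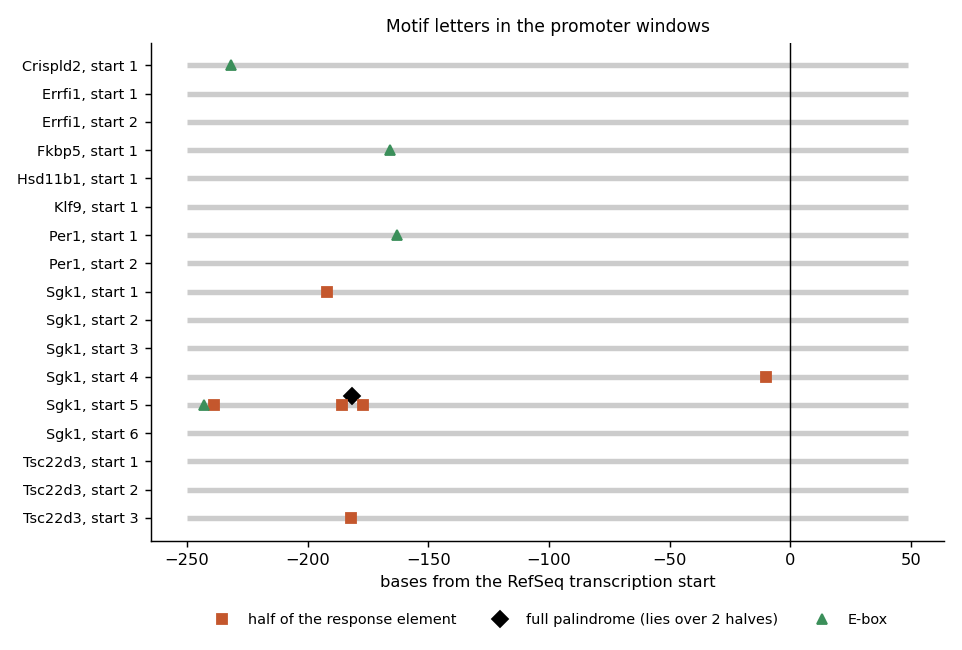
Matches to the palindrome (black diamond), its arm and CACGTG in the 17 RefSeq promoter windows of 8 genes, by position in bases relative to the start. The palindrome is in 1 window of *Sgk1*, 189 bases before the start.

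The receptor's chaperones and coregulators were next. Of 12 chaperone genes none was called by edgeR or DESeq2, and at an unadjusted p under 0.05 there was 1 lower and 1 higher. The median log2 fold change was -0.01, and all values lay between -0.17 and 0.17. The higher gene was *Ppid*, a cyclophilin of the HSP90 complex, at 0.17 (adjusted p = 0.171), and the lower was *Bag1*, a regulator of HSP70, at -0.17 (adjusted p = 0.224). *Fkbp4*, which competes with FKBP5 for the complex, was at 224 CPM in wild-type and 214 CPM in mutant lungs (log2 fold change -0.07, SE 0.05, adjusted p = 0.535). Of 12 coregulators none was called by edgeR or DESeq2, 1 had an unadjusted p under 0.05, and the log2 fold change was positive in 10. That 1 was *Med14*, a Mediator subunit that binds the receptor, at 80.8 and 92.5 CPM (log2 fold change 0.19, SE 0.07, adjusted p = 0.177). *Carm1*, an arginine methyltransferase, was at 0.10 (adjusted p = 0.439) and *Ncor1*, a corepressor, at 0.09 (adjusted p = 0.49), and both are overlapped by antisense exons.

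Of 30 further glucocorticoid-responsive genes, 29 were tested and 8 fell, or 27.6% against 1.34% of all tested genes. None was called higher by edgeR or DESeq2, and none was higher at an unadjusted p under 0.05. The median log2 fold change of the 29 was -0.21, and 22 were negative. The largest fall was that of *Lcn2*, which encodes a secreted iron-siderophore binding protein, from 4.70 ± 0.332 to 2.42 ± 0.222 CPM (log2 fold change -0.95, SE 0.19, adjusted p = 0.0293). *Mt1*, a metallothionein, fell from 35.6 ± 2.99 to 25.4 ± 2.03 CPM (-0.48, SE 0.09, adjusted p = 0.0196). *Ddit4*, an inhibitor of mTOR complex signaling, fell from 72.6 ± 2.49 to 55.6 ± 1.42 CPM (-0.38, SE 0.07, adjusted p = 0.0199). Without 1 lung these calls were not all kept: *Lcn2* was at an adjusted p of 0.0916 without wild-type lung 1, *Mt1* at 0.132 without wild-type lung 2 and 0.0649 without mutant lung 1, and *Ddit4* at 0.0522 without wild-type lung 2.

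The other 5 were *Gadd45g* and *Cdkn1a*, which restrain the cell cycle, *Tnfaip3*, an inhibitor of NF-kappaB signaling, *Tgm2*, a transglutaminase, and *Glul*, glutamine synthetase. Their log2 fold changes were -0.51, -0.47, -0.45, -0.33 and -0.22, with adjusted p from 0.0198 to 0.0469. *Cdkn1a*, *Tgm2* and *Glul* are overlapped by antisense exons, and the counting is not stated to use strand. *Txnip*, which encodes an inhibitor of thioredoxin, was at -0.21 (adjusted p = 0.0849, with an antisense overlap). *Nfkbia*, the inhibitor of NF-kappaB, was at -0.25 (adjusted p = 0.101) and *Cebpd*, a transcription factor of the acute response, at -0.40 (adjusted p = 0.113, with an antisense overlap), and neither was called. Leaving out wild-type lung 1 ended the calls of *Tnfaip3*, *Cdkn1a*, *Tgm2* and *Glul* (adjusted p from 0.0846 to 0.278). Leaving out wild-type lung 2 ended those of *Gadd45g* (0.108) and *Glul* (0.154), and leaving out mutant lung 1 those of *Cdkn1a* (0.0578) and *Glul* (0.0816). The number called of the 29 was 13 without mutant lung 2, 5 without mutant lung 1 and 4 without either wild-type lung.

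Genes of late fetal lung maturation were followed next, on a list also drawn up with earlier results of these data known. All 16 had both mutant lungs below both wild-type lungs, against 24.3% of all tested genes, and 11 fell (68.8%, against 1.34% of all tested genes), with a median log2 fold change of -0.45. None was called higher by edgeR or DESeq2 and none was higher at an unadjusted p under 0.05. Among surfactant genes, *Sftpd* fell from 48.2 ± 3.28 to 23.0 ± 5.55 CPM (log2 fold change -1.06, SE 0.13, adjusted p = 0.00441) and *Sftpb* from 808 ± 16.4 to 581 ± 10.9 CPM (-0.48, SE 0.07, adjusted p = 0.00961). *Fasn*, fatty acid synthase, fell from 402 ± 22.6 to 289 ± 0.769 CPM (-0.48, SE 0.05, adjusted p = 0.0036). *Sftpb* was at an adjusted p of 0.0633 without wild-type lung 2. *Eln*, elastin of the airspace walls, was at -0.42 (adjusted p = 0.072) and *Pcyt1a*, an enzyme of phosphatidylcholine synthesis, at -0.20 (adjusted p = 0.111). Neither was called, and both have antisense overlaps.

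Subunits of the epithelial sodium channel, whose amount at the cell surface SGK1 raises, were on the same list. *Scnn1a* fell from 139 ± 6.67 to 95.1 ± 17.8 CPM (log2 fold change -0.55, SE 0.10, adjusted p = 0.0184) and *Scnn1g* from 48.6 ± 1.86 to 33.7 ± 0.589 CPM (-0.53, SE 0.08, adjusted p = 0.00897). *Scnn1b*, the remaining subunit, was at -0.31 (adjusted p = 0.135). *Aqp5*, the water channel of the distal airspace, fell from 28.2 ± 1.17 to 11.9 ± 4.74 CPM (-1.23, SE 0.18, adjusted p = 0.00897). With robust estimation and with the DESeq2 Wald test, the adjusted p was 0.237 and 0.0531 for *Aqp5* and 0.0551 and 0.0958 for *Scnn1a*. The other genes that fell were *Sftpa1*, *Abca3*, *Lpcat1*, *Aqp1* and *Pdpn*, by 0.26 to 0.57 on the log2 scale, and *Abca3* is overlapped by an antisense exon. *Abca3* and *Pdpn* were at adjusted p of 0.332 and 0.0538 without wild-type lung 1.

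**Figure D5:**
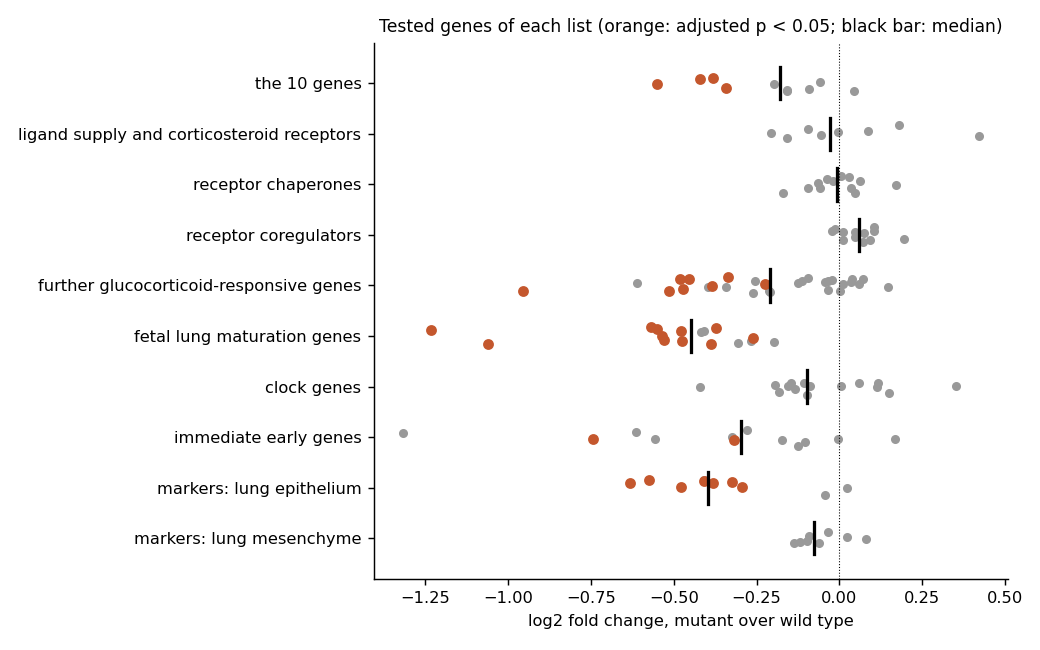
Log2 fold change, *Myh10*L458R/L458R over wild-type, of each tested gene in the lists of the glucocorticoid pathway and its neighbors, with orange points for genes called at an adjusted p under 0.05. The called points all lie below 0. They make up 68.8% of the maturation genes and 70% of the lung epithelium markers, lists that share *Sftpb* and *Sftpc*. None lies among the ligand supply genes, chaperones, coregulators, clock genes or mesenchyme markers.

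Some cell type markers differed between the genotypes as well. Of 10 markers of lung epithelium 7 fell, or 70% against 1.34% of all tested genes, and DESeq2 called 6 of the 10 lower. The summed level of the 10 was 9229 and 8970 CPM in wild-type and 6416 and 7486 CPM in mutant lungs. Most of that sum was *Sftpc*, at 5815, 5630, 3876 and 4750 CPM. *Sftpc* was not called (log2 fold change -0.41, SE 0.14, adjusted p = 0.173). The surfactant genes *Sftpb* and *Sftpc* are also maturation genes. The 7 were *Rtkn2*, *Ager*, *Sftpb*, *Hopx*, *Lamp3*, *Krt8* and *Cdh1*, with log2 fold changes from -0.63 to -0.30. They include *Cdh1*, the adhesion molecule E-cadherin of all epithelium, from 379 to 309 CPM (adjusted p = 0.0178), and *Krt8*, a keratin of simple epithelium, from 171 to 136 CPM (adjusted p = 0.00984). *Krt8*, *Hopx* and *Rtkn2* have antisense overlaps. Of the other markers not called, *Epcam*, an adhesion molecule of all epithelium, was at 148 and 143 CPM (log2 fold change -0.04, adjusted p = 0.738). *Nkx2-1* was at 0.02 (adjusted p = 0.881). Of 8 markers of mesenchyme none was called by edgeR or DESeq2, 1 was lower at an unadjusted p under 0.05, and their sum was 3455, 3575, 3412 and 3359 CPM. Of 5 endothelial markers none was called by edgeR or DESeq2, 3 were lower at an unadjusted p under 0.05, and the sum was 1292, 1233, 1189 and 1147 CPM. The part of cell composition in the falls of *Fkbp5*, *Tsc22d3*, *Klf9* and *Crispld2* was not tested.

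Of 5 markers of the adrenal cortex, where the hormone is made, 4 were at or near 0. *Cyp11b1* and *Cyp11b2* had 0 reads in all 4 lungs, *Cyp21a1* had 1 read in each mutant lung, and *Mc2r* had 0 to 5 reads. The other was *Star*, given above, the only one tested. Clock genes, which share *Per1* with the glucocorticoid response, included 15 tested genes. None was called by edgeR, 1 was called lower by DESeq2, and 3 were lower at an unadjusted p under 0.05. *Bhlhe40*, a repressor of clock gene transcription, had the lowest p (log2 fold change -0.42, adjusted p = 0.0618, with an antisense overlap). Of 12 immediate early genes, 2 fell (16.7%, against 1.34% of all tested genes) and 11 had a negative log2 fold change. These genes respond to handling of tissue as well as to growth factors. At an unadjusted p under 0.05, 8 of the 12 were lower, against 9.02% of all tested genes, and none was higher. The median log2 fold change was -0.30, and 8 had both mutant lungs below both wild-type lungs, against 24.3% of all tested genes. *Ier3* fell from 28.7 ± 3.00 to 17.1 ± 0.864 CPM (-0.74, SE 0.09, adjusted p = 0.00431) and *Btg2* from 234 ± 5.85 to 188 ± 8.17 CPM (-0.32, SE 0.05, adjusted p = 0.0108). Their part in the falls of the glucocorticoid-responsive genes was not tested.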

How the data were processed

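Poly(A) RNA of 4 left lobes at embryonic day 17 was sequenced with a stranded kit. The authors deposited raw counts, unnormalized, for each Ensembl gene and lung. The submitters' processing notes name STAR 2.4.0a, featureCounts 1.5.1 and GRCm38. The strand setting of the counting is not given in the sources used here, so genes with antisense exons are uncertain. None of the 10 genes studied shares exon sequence with another gene. The authors' normalization by DESeq2 is not in the counts.

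From the counts, the 18763 genes averaging 5 or more counts were tested with the quasi-likelihood test of edgeR 4.0.16 (R 4.3.3, TMM scaling, without robust estimation) between 2 wild-type and 2 mutant lungs, with Benjamini-Hochberg adjustment over all of them. Intervals are 95% intervals of the fit. RPKM is TMM-scaled CPM over the union of GENCODE exons. Lungs of a genotype differed by more than counting noise (chi-square per degree of freedom 5.59 in wild-type and 9.27 in mutant lungs). These values are over all genes with counts and include *Xist*, which had 89703 and 35 reads in the wild-type and 114 and 143443 reads in the mutant lungs. Whether replicate lungs share a litter is not given in the sources used here, so the p-values do not measure a spread between litters. They rest on the spread between these lungs, with the estimate for each gene drawn toward that of other genes. The test was also run on counts simulated from these lungs, and the outcome is not given here. All 10 genes are reported, and from each pathway list the called genes, the next 3 by p, and *Nr3c2*, *Hsd11b2* and *H6pd*. *Bhlhe40*, *Epcam*, *Nkx2-1* and the adrenal genes were named after their values were seen. Alternatives were library totals, size factors and the Wald test of DESeq2 1.42.0, other filters, robust estimation, a threshold of 0.1, a replicate block and leaving out each lung. The genes and lists were chosen with earlier results of these data known, so their directions are not independent evidence. Promoters came from RefSeq (GRCm38.p6). *Nr3c1* and *Zbtb16* had no window used here.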

Additional observations from a re-analysis of the deposited data

How the results depend on the processing

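*Fkbp5*, *Tsc22d3*, *Klf9* and *Crispld2* stayed called under all 8 other fits with the 4 lungs, with adjusted p up to 0.038, 0.0143, 0.021 and 0.0146. *Hsd11b1* was called in 1 of these 8, without a filter on low counts (adjusted p = 0.0349). No result changed sign past the threshold under any alternative run. Against 252 genes lower and 56 higher, library totals gave 112 higher, no filter 688 lower and 474 higher, robust estimation 135 higher, the DESeq2 Wald test 92 higher and a threshold of 0.1 473 lower and 223 higher. The cause was not tested. The lower share of calls was 81.8%, against 67.6% with library totals, which gave a median log2 fold change of 0.0218 beside 0.0018, 59.2% with no filter, 71.5% with robust estimation and 73.8% with the Wald test. Leaving out 1 lung at a time gave 175 to 875 genes lower and 31 to 768 higher, 3 to 7 of the 10 genes lower, 4 to 13 of the further responsive genes and 10 to 16 of the maturation genes, the top of each range without mutant lung 2. The labels do not say whether the numbers 1 and 2 pair the lungs. Deviations of same-numbered lungs correlated at -0.297 over all tested genes and at -0.654 over those averaging 250 counts or more. Same-numbered lungs also differed in *Xist*, so this correlation cannot decide whether they are pairs. A replicate block gave 466 lower and 244 higher (65.6% lower). A crossed replicate block, chosen after seeing the data, gave 320 lower and 95 higher. It put the 2 lungs with *Xist* in 1 block and the 2 without in the other. Each fit without 1 lung left the genotypes unequal in *Xist*. With the other fits, *Glul* lost its call with library totals (adjusted p = 0.0541) and the crossed block, *Scnn1a* and *Aqp5* with robust estimation and the Wald test, *Tnfaip3* with the Wald test and *Abca3* with the crossed block. With 2 lungs a genotype, a gene that was not called may still differ by any size within its interval.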

Other observations

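Of 5 tested heart muscle markers 4 were called lower (*Myh6*, *Myl7*, *Tnnt2* and *Ryr2*), or 80% against 1.34% of all tested genes. The other, *Actc1*, was at a log2 fold change of -0.41 (adjusted p = 0.0575), and DESeq2 called all 5 lower. Their summed levels were 211 and 261 CPM in wild-type and 167 and 154 CPM in mutant lungs. Of 6 red blood cell markers 2 fell (*Alas2* and *Hba-a2*, the latter uncertain as it has a near-identical copy) but none was called by DESeq2, with sums of 4259 and 5348 CPM in wild-type and 3759 and 4274 CPM in mutant lungs. Of 4 mesothelial markers 1 fell, *Msln*, a surface protein of mesothelium, which DESeq2 did not call. Of 5 tested leukocyte markers none was called by edgeR or DESeq2, 3 were lower at an unadjusted p under 0.05, and the sums were 71.7, 66.7, 58.7 and 61.9 CPM. These lists share no gene with the glucocorticoid-responsive genes, and their part in those results was not tested. *Alas2* and *Myh6* are overlapped by antisense exons.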
